A study of Drosophila melanogaster with 12 samples.

Results

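The comparison described here is sucrose against none in heads of control flies, and it used 4 of the 12 libraries of the series: 1 library each from flies given 25, 50 or 100 percent sucrose, set against 1 library from flies given 0 percent, all at 18 h. The 4 libraries were taken by their genotype and sucrose labels, not by any measured value. The controls are Canton-S Drosophila melanogaster that carry the cbt RNAi transgene, labelled +/cbtE1-UAS-cbt RNAi, without a driver; the 8 other libraries, 2 at each concentration, come from flies labelled cabut RNAi, in which Tim-gal4 drives UAS-cbt RNAi in cells with clock gene activity. All flies thus carry the UAS transgene, and the labels do not say whether heads were pooled, what sex or age the flies had, or whether the food without sucrose held another nutrient. With 1 library at 0 percent there is no replicate on that side: each difference rests on the assumption that this library varies as libraries of the other groups do.

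In a fly without dietary sugar, the fat body and other tissues draw on stored lipid and amino acids, and gluconeogenic enzymes turn their carbon into sugar. Sugar arrival is known to act through the transcription factors Mondo and bigmax, which raise the repressor gene cbt and the activator gene sug and lower the phosphoenolpyruvate carboxykinase genes, and through insulin signalling, which restrains the FOXO target genes. In adult heads the fat body around the brain is a main site of this metabolic response.

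The reads come from 3′ ends of transcripts and were scaled by the authors with 1 factor per library; these values are called normalized reads. The 3 control libraries with sucrose held 1333200 (25 percent), 865383 (50 percent) and 511487 reads (100 percent), and the control library without sucrose held 875917, with 1 transcript row per gene. Markers fixed as lists were read beside the head label: 17 photoreceptor genes summed to 50010, 48516 and 44709 normalized reads with sucrose and to 45700 without, and 10 male accessory gland genes to at most 2.48 in any control library. As the labels give no sex, the accessory gland genes cannot tell whether female body tissue was present. The control library at 100 percent sucrose stood apart. In it, 16 genes had at least 50 normalized reads and more than 10 times the highest value of the other 11 libraries; no other control library had such a gene, and among the other libraries 1 had 2. Among the 16 were dhd, a thioredoxin gene of the female germline (141 normalized reads, at most 0.876 elsewhere), the mucin gene Muc68D (163.4, 0 elsewhere), the oenocyte cytochrome P450 gene Cyp4g1 (1101, at most 17.3 elsewhere), CG14645 (1473, at most 4.93 elsewhere) and CG34220 (1233, at most 7.19 elsewhere). In the same library 22 gut protease genes summed to 111.9 normalized reads, against 15.9 and 18.6 in the 25 and 50 percent libraries and 7.68 without sucrose, and 15 ovary and eggshell genes, a list added after the values were seen, summed to 270.8, against 31.0 and 27.3 in the 25 and 50 percent libraries and 20.5 without sucrose. Results are therefore also given without this library.

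Each gene was tested with limma on log2(normalized reads + 1), as the mean of the 3 control libraries with sucrose minus the control library without, in a fit over all 12 libraries. The spread in this fit comes from the pairs of libraries labelled cabut RNAi. Nothing in the labels says that paired libraries came from separate cultures or animals, so the p-values rest on how much these libraries varied, in part perhaps for technical reasons. A log2 fold change on this scale understates the change of genes with few reads. Adjusted p-values are Benjamini-Hochberg over all 6552 genes tested, and a gene is called, rises or falls at an adjusted p under 0.05.

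Genes that fell with sucrose included enzymes of lipid breakdown, gluconeogenesis, amino acid breakdown, serine and folate metabolism and purine synthesis, while few genes with many reads rose. In all, 48 genes fell (0.733 percent of 6552 tested) and 28 rose (0.427 percent), together 1.16 percent. With 1 added to each value, the fallen genes were lower by 1.59-fold to 5.68-fold, apart from Pepck2, which had almost no reads with sucrose. CG10514, within that range, also had few reads: 0, 0 and 1 at 25, 50 and 100 percent, against 4 at 0 percent. For the 48 fallen genes, the median ratio of the highest to the lowest value with sucrose, 1 being added to each, was 1.41. Single genes could spread further, as Ahcy did with 124.2 to 299.8. No such median was taken over all genes tested. The value without sucrose lay outside the range of the 3 others for all 48, as it did for 50.4 percent of the genes tested. For 45 of the 48 the gap to that range was wider than the range itself, against 14.2 percent of the genes tested. Of the 28 that rose, the value without sucrose lay outside the range for 23, the gap was the wider for 8, and the median of the highest over the lowest was 1.82. Since genes were called for their difference from the single library without sucrose, such counts are in part fixed by the call. The 25 percent library was the lowest of the 3 with sucrose for 22 of the 48 genes, the 50 percent library for 9 and the 100 percent library for 17.

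The fallen and the risen genes did not rest on the same depth of reads. Of the 48 that fell, 42 had a mean of at least 50 normalized reads over the 12 libraries, 45 also fell by edgeR's quasi-likelihood test on the recovered reads (47 in all, 0.717 percent), and 32 also fell without the library at 100 percent sucrose, where 33 fell in all (0.504 percent). Of the 28 that rose, 10 had such a mean, 15 had 3 reads or fewer in the control library without sucrose, 1 also rose by edgeR (2 rose in all, 0.0305 percent), and 7 also rose without the 100 percent library (9 in all, 0.137 percent). In a fit of the 4 control libraries alone, where the spread is that among the 3 with sucrose, 23 genes fell and 5 rose (0.351 and 0.0763 percent). Both directions together, 0.748 percent of genes were called by edgeR, 0.641 percent without the 100 percent library and 0.427 percent in the control libraries alone.

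**Figure D1:**
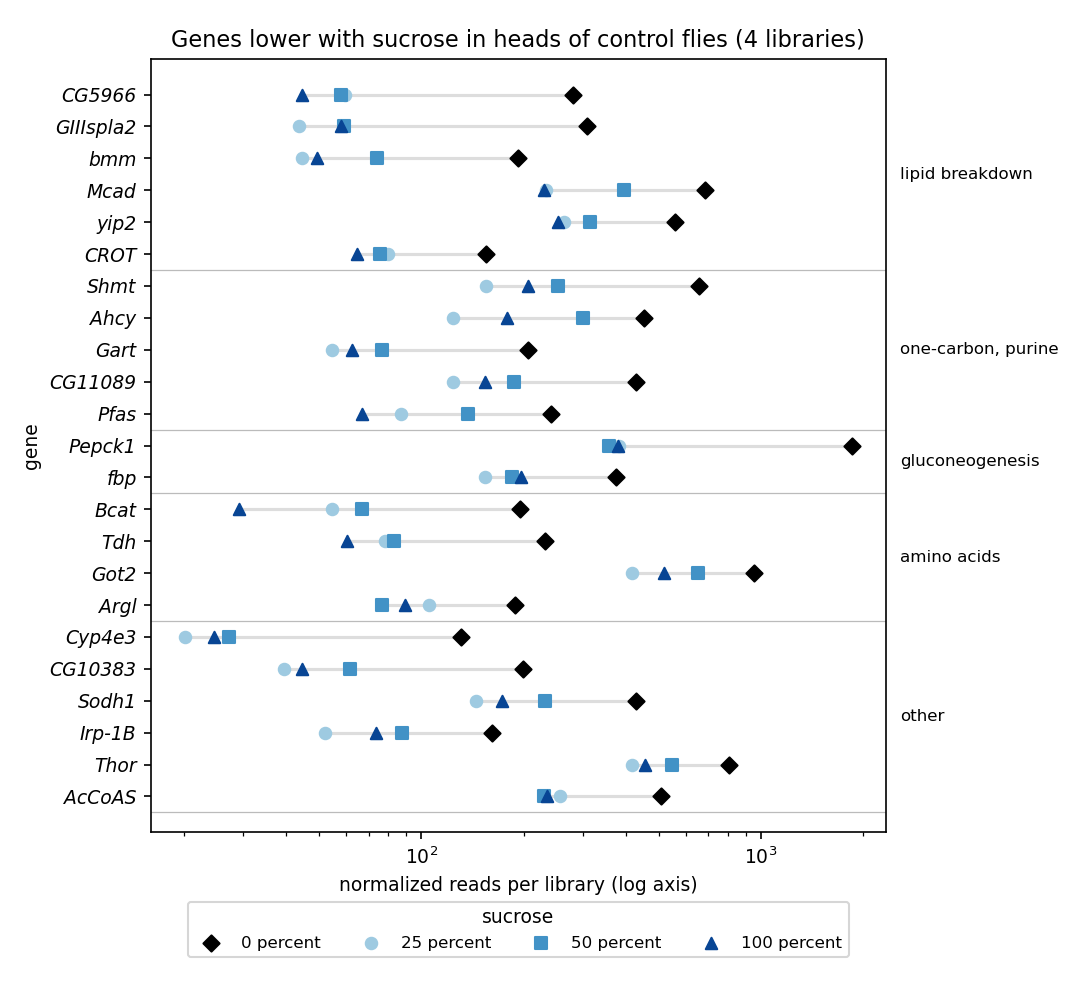
Normalized reads (log axis) of 23 genes that fell with sucrose, 1 row per gene, in the 4 control libraries; the marker shape and shade give the sucrose concentration and the grey line joins the lowest and highest value. For every gene shown the value without sucrose is the highest of the 4, as for Pepck1 with 382.7, 356.8 and 380.4 with sucrose and 1853 without.

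Lipase genes were among the largest falls. GIIIspla2 (CG1583, chromosome X, 8051580 to 8053072 in build dm3), a secreted phospholipase gene, held 43.6, 59.5 and 58.2 normalized reads at 25, 50 and 100 percent sucrose, against 307.4 at 0 percent. The 3 values with sucrose lay far below the value without, a 5.68-fold difference (log2 fold change -2.51 ± 0.28 SE, limma adjusted p = 8.62e-04). CG5966 (chromosome X, 5882845 to 5886677), of the triglyceride lipase family, held 59.6, 58.2 and 44.8, against 279.2 (-2.36 ± 0.24, adjusted p = 4.48e-04). The brummer lipase gene bmm (CG5295, chromosome 3L, 14769596 to 14779523), which releases fatty acids from lipid droplets, held 44.5, 74.3 and 49.2, against 192.1 (-1.80 ± 0.27, adjusted p = 0.00759). Of 9 tested genes in the list of lipases and lipid droplet genes these 3 fell. The phosphatidylserine decarboxylase gene Pisd rose (251.7, 247.8 and 181.3 with sucrose, against 111.4; 1.0 ± 0.20, adjusted p = 0.0287, and 0.0776 by edgeR). The other 5 were not past the threshold, among them the perilipin genes Lsd-1 (0.65 ± 0.21) and Lsd-2 (-0.51 ± 0.16), whose estimates lay on opposite sides of 0. The glycerol kinase gene Gk1, outside the list and singled out after its values were seen, fell as well (104.9, 104.1 and 67.1, against 188.3; adjusted p = 0.0184, and 0.0918 without the 100 percent library).

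Among genes of fatty acid oxidation, of 13 tested members 2 fell and none rose, and 12 had an estimate below 0; the median log2 fold change was -0.57, against -0.01 for all genes tested. Mcad, the medium-chain acyl-CoA dehydrogenase gene, held 232.4, 395.2 and 230.5 normalized reads with sucrose, against 682.6 without (-1.30 ± 0.18, adjusted p = 0.00351). The thiolase gene yip2 held 262.7, 314.6 and 252.9, against 559.7 (-1.02 ± 0.14, adjusted p = 0.00466). Both enzymes act within the mitochondrion on shortened acyl chains, and the 50 percent library held the highest of the 3 values for each. The mitochondrial carnitine carrier gene colt (-0.84 ± 0.20, adjusted p = 0.0787), the electron transfer flavoprotein oxidoreductase gene Etf-QO (-0.88 ± 0.23) and Mtpbeta of the trifunctional protein (-0.66 ± 0.17) did not pass. The estimate for the carnitine palmitoyltransferase gene whd, which controls entry of long chains, was smaller at -0.29 ± 0.13. CROT, a carnitine acyltransferase gene outside the list, fell (79.7, 75.6 and 64.9, against 155.0; adjusted p = 0.0231, and 0.0652 without the 100 percent library).

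Of 9 tested genes of fatty acid synthesis 1 rose and 1 fell. FASN1, the fatty acid synthase gene, held 732.6, 519 and 673.6 normalized reads with sucrose, against 388 without (0.71 ± 0.15, adjusted p = 0.0474). It was not past the threshold by edgeR (0.0900) or without the 100 percent library (0.100). AcCoAS, acetyl-CoA synthetase, which makes acetyl-CoA from acetate, held 255.9, 230.4 and 235.0, against 507.1 (-1.08 ± 0.12, adjusted p = 0.00103). Its 3 values with sucrose differed by little beside the gap to the value without. The other 7 tested members, ACC, Desat1, SREBP and Men among them, had estimates between -0.82 (Lpin) and -0.03 (ACC) and none passed, with a list median of -0.22.

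Gluconeogenic genes fell with sucrose, and most genes of glycolysis did not pass the test. Pepck1 (CG17725, chromosome 2R, 14424272 to 14426924), a phosphoenolpyruvate carboxykinase gene, held 382.7, 356.8 and 380.4 normalized reads, against 1853. This was a 4.96-fold difference (-2.31 ± 0.16, adjusted p = 2.08e-05), with a mean of 373.3 ± 14.4 over the 3 libraries with sucrose (SD, n = 3). Its neighbour and paralogue Pepck2 (CG10924, chromosome 2R, 14414937 to 14423263) had 2 reads in the 25 percent library and 0 at 50 and 100 percent, against 19 reads at 0 percent. The level without sucrose was 29.8 times that with sucrose, with an exact 95 percent interval of 7.18 to 263.5 that covers counting error only (limma adjusted p = 1.28e-04). Reads could in part have been divided between the paralogues. The fructose-1,6-bisphosphatase gene fbp held 154.4, 184.6 and 196.9, against 374.0 (-1.07 ± 0.17, adjusted p = 0.0103), and the triosephosphate isomerase gene Tpi 439.7, 577.3 and 416.2, against 776.1 (-0.71 ± 0.14, adjusted p = 0.0287, and 0.0925 without the 100 percent library). Of 16 tested members of the list these 4 fell and none rose. All 16 estimates were below 0, with a median of -0.24, but the hexokinase gene Hex-A (-0.10 ± 0.18), the phosphofructokinase gene Pfk (-0.13 ± 0.15), Gapdh1 (-0.11 ± 0.16) and the pyruvate kinase gene PyK (-0.03 ± 0.14) differed by less than their error.

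Among other sugar pathways, polyol and sugar-handling genes held the calls. Sodh1, sorbitol dehydrogenase, which oxidises sorbitol to fructose, held 145.2, 231.7 and 172.3 normalized reads, against 427.7 (-1.25 ± 0.18, adjusted p = 0.00604). The aldo-keto reductase gene Akr1B held 97.3, 97.9 and 116.4, against 197.2 (-0.92 ± 0.14, adjusted p = 0.00777). These were the 2 calls among 11 tested members of the glycogen, trehalose and polyol list, whose median was -0.61; the trehalose-6-phosphate synthase gene Tps1 (0.26 ± 0.18) and the glycogen phosphorylase gene Glyp (0.27 ± 0.15) lay on the other side of 0 and did not pass. Of 5 galactose pathway genes CG32444 fell (92.3, 90.4 and 136.5, against 193.4; adjusted p = 0.0236), and the galactokinase gene Galk did not pass (138.5, 141.2 and 123.1, against 260.0; adjusted p = 0.139). Of 6 tested pentose phosphate genes and of 7 amylase and maltase genes none passed, with medians of -0.52 and -0.27. Taldo, transaldolase, was closest in the first (391.9, 359.2 and 431.9, against 554.5; adjusted p = 0.0753), and the amylase gene Amy-p in the second (82.2, 109 and 158.9, against 225.4; adjusted p = 0.159), which has a near-identical copy, Amy-d, whose reads may be mixed with its own.

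Genes of serine, folate and methyl-group metabolism fell, and so did genes of purine synthesis, which takes carbon units from folate. Shmt (CG3011, chromosome X, 5807099 to 5810826), serine hydroxymethyltransferase, the enzyme that passes a carbon unit from serine to folate, held 155.2, 252.7 and 205.9 normalized reads, against 657 (-1.71 ± 0.22, adjusted p = 0.00252). Ahcy, adenosylhomocysteinase, held 124.2, 299.8 and 179.0, against 452.1 (-1.26 ± 0.24, adjusted p = 0.0287, and 0.0652 without the 100 percent library). The serine synthesis genes aay (phosphoserine phosphatase; 82.2, 101.6 and 111.9, against 189.5; adjusted p = 0.0421) and CG6287 (phosphoglycerate dehydrogenase; 204.8, 263.9 and 199.2, against 412.4; adjusted p = 0.0110) fell too. Of 14 tested members these 4 fell, none rose, and the median was -0.74. The mitochondrial folate enzyme gene Nmdmc had the largest estimate of the list without passing (36.1, 52.0 and 33.6, against 193.4; -2.25 ± 0.53, adjusted p = 0.0733).

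In purine synthesis 3 of 9 tested genes fell and none rose (median -0.67). Gart, an enzyme of several early steps, held 54.5, 76.8 and 62.7, against 206.2 (-1.67 ± 0.27, adjusted p = 0.00934). CG11089, of the last steps to inosine monophosphate, held 124.2, 187.1 and 154.4, against 429 (-1.48 ± 0.22, adjusted p = 0.00674). Pfas held 87.3, 137.5 and 67.1, against 240.8 (-1.36 ± 0.21, adjusted p = 0.00743). Those 3 enzymes belong to the path up to inosine monophosphate. The genes of the branches beyond it, ras (0.50 ± 0.17), bur (0.13 ± 0.30) and Adss (0.07 ± 0.20), did not pass and had estimates above 0. Gart, CG11089 and Pfas each overlap another gene in the deposited coordinates, as do, among others, BomBc2, Mcad, yip2, CROT, Gk1, Got2, CG10383, Scsalpha1, Cyp313a1, sxe2, Tmx3, CG3348, CG34220, CG14645 and CG34324. Without knowledge of strand, reads of such pairs could not be told apart. The overlapping gene with the most reads averaged 0.72 normalized reads for Gart, 1.45 for Mcad, 4.36 for Pfas and 8.52 for CG11089. For CROT it averaged 82.5, for yip2 122.7 and for BomBc2 381.6.

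Among amino acid breakdown genes 3 transaminase genes fell. Bcat, the branched-chain amino acid transaminase gene, held 54.5, 66.9 and 29.1 normalized reads, against 194.7 (-2.01 ± 0.26, adjusted p = 0.00252). The aspartate transaminase genes Got2 (417.9, 651.6 and 519.2, against 954.1; adjusted p = 0.0344, and 0.0682 without the 100 percent library) and Got1 (217.3, 241.6 and 255.1, against 388; adjusted p = 0.0296) fell by less. These 3 were the calls among 16 tested members (median -0.36), and the glutamate dehydrogenase gene Gdh lay above 0 without passing (0.29 ± 0.13). Outside the list, Tdh, threonine dehydrogenase (CG5955, chromosome 3L, 20460048 to 20462702), held 78.0, 83 and 60.4, against 231.8 (-1.65 ± 0.17, adjusted p = 4.48e-04). The argininosuccinate lyase gene Argl, also outside it, fell too (105.7, 76.8 and 89.5, against 188.3, adjusted p = 0.0324). Argl did not pass without the 100 percent library.

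**Figure D2:**
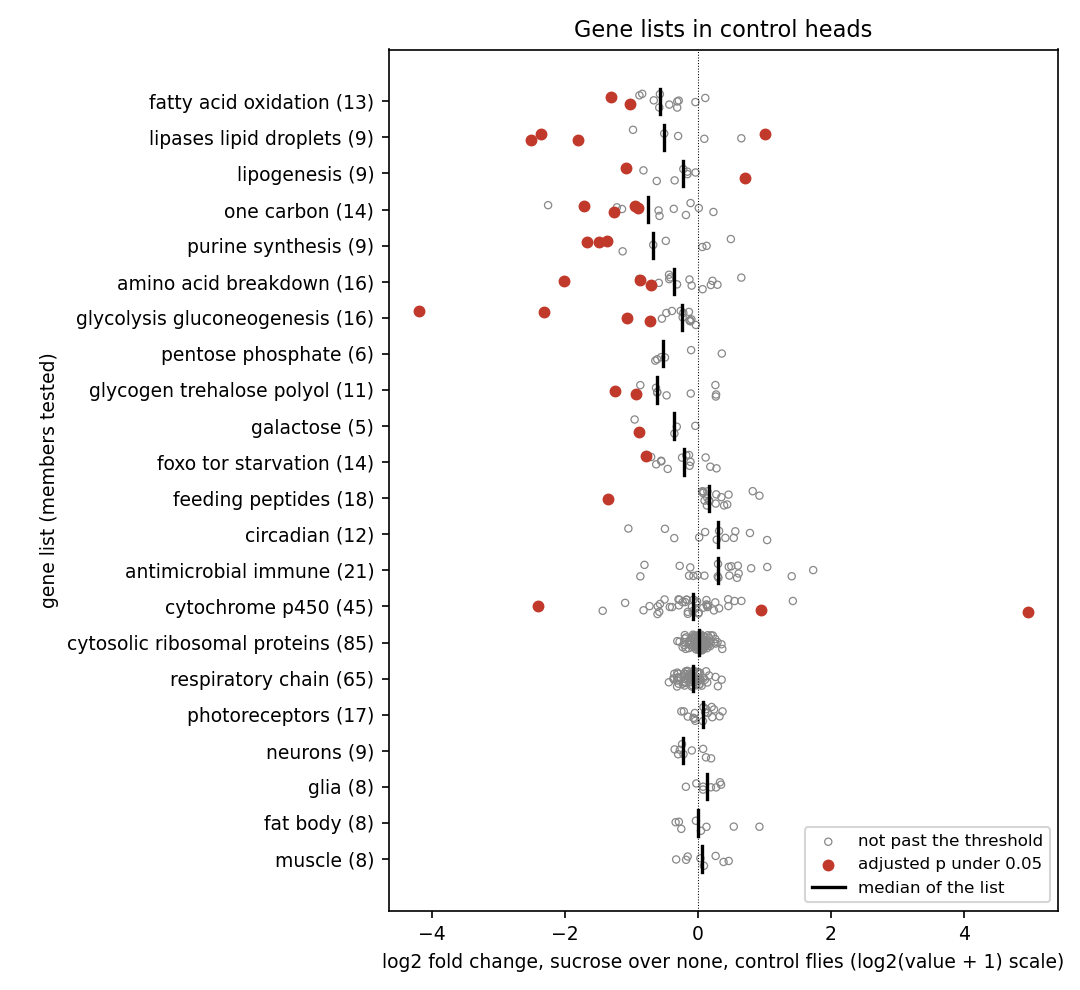
Log2 fold change with sucrose over none in control flies for the tested members of 22 gene lists, 1 circle per gene; filled circles passed an adjusted p of 0.05 and the black bar is the list's median. Medians of fatty acid oxidation (-0.57), the serine and folate list (-0.74) and purine synthesis (-0.67) lie left of 0, and those of cytosolic ribosomal proteins (0.02) and photoreceptor genes (0.08) lie near it.

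Among nutrient signalling genes the calls were Thor and ImpL2. Thor, the 4E-BP translation inhibitor and a classic FOXO target, held 416.2, 547.5 and 454.3 normalized reads, against 804.3 (-0.78 ± 0.15, adjusted p = 0.0287, and 0.0652 without the 100 percent library); it was the 1 call among 14 tested FOXO, TOR and starvation genes (median -0.21). ImpL2, which encodes a secreted protein that binds and inhibits insulin-like peptides, held 36.1, 22.3 and 49.2, against 88.4 (-1.35 ± 0.23, adjusted p = 0.0137). The deposited values of the adjoining CG43367 were nearly the same in every library, so the calls of this pair are 1 observation. ImpL2 was the 1 call among 18 tested insulin-like and feeding peptide genes, of which the 17 others had estimates above 0 (median of the list 0.17). Among those 17 were Ilp3 (0.82 ± 0.27, adjusted p = 0.188) and the fat body satiety gene fit (190.5, 137.5 and 208.1, against 92.2; 0.93 ± 0.32, adjusted p = 0.211).

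The sugar-sensing regulators themselves did not pass. For cbt the 3 values with sucrose were 139.3, 127.6 and 98.5 normalized reads, against 93.5 without (0.36 ± 0.19, adjusted p = 0.429). The 100 percent value lay close to that without sucrose. For sug, the sugarbabe activator gene, the values were 83.1, 102.8 and 91.8, against 82 (0.17 ± 0.20, adjusted p = 0.771). Mondo (-0.17 ± 0.25), bigmax (-0.15 ± 0.18) and the activin-like ligand gene daw (43.6, 44.6 and 47.0, against 28.2; 0.66 ± 0.26, adjusted p = 0.284) did not pass either. Within this list of 8 the calls were both Pepck genes, described above.

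Among the 10 risen genes with a mean of at least 50 normalized reads, 6 had at least 26 reads in each control library. Besides FASN1 and Pisd these were Cyp313a1, a cytochrome P450 gene (143.5, 156.1 and 170.1, against 80.7; adjusted p = 0.0492), sxe2, a lipase-family gene (125.9, 84.2 and 96.2, against 51.2; adjusted p = 0.0255), Tmx3, a thioredoxin-related gene (74.7, 88.0 and 76.1, against 39.7; adjusted p = 0.0377), and lolal, a BTB-domain gene (88.1, 57.0 and 64.9, against 33.3; adjusted p = 0.0278). In all 6 the value without sucrose was the lowest of the 4, and none of the 6 passed by edgeR. Without sucrose lolal, Tmx3 and sxe2 had 26, 31 and 40 reads. Since the spread comes from libraries labelled cabut RNAi, their limma p-values need not cover the counting error of so few reads. The other 4 were CG3348, Cyp4g1, CG14645 and CG34220. CG3348 held 27.7, 4.96 and 35.8, against 2.56 normalized reads. Its 53 reads with sucrose and 2 without give a ratio of 8.46, with an exact 95 percent counting interval of 2.23 to 71.7. In flies labelled cabut RNAi CG3348 held 947.3 ± 299 normalized reads with sucrose and 246.8 ± 12.9 without (SD). Its spread in the fit comes from those libraries, at levels far above those of controls, and it did not pass by edgeR. Cyp4g1 held 16.8, 17.3 and 1101, against 1.28. Without the 100 percent library it did not pass (adjusted p = 0.171). CG14645 and CG34220 were high in the 100 percent library alone: CG14645 held 2.52, 2.48 and 1473, against 1.28, and its adjusted p without that library was 0.696. CG3906, CG34324, Muc68D and dhd, with 0 reads in the 3 other control libraries, were called as well. Without the 100 percent library sxe2, lolal, Pisd and CG3348 still passed among these 10. By edgeR the 2 risen genes were Cyp4g1 and BomBc2, an immune peptide gene (1939, 1521 and 2086, against 1051; limma adjusted p = 0.0547, edgeR 0.0430).

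Other fallen genes follow by size of change. Cyp4e3 (CG4105, chromosome 2L, 9748012 to 9750020), a cytochrome P450 gene, held 20.1, 27.3 and 24.6 normalized reads, against 130.6 (-2.41 ± 0.17, adjusted p = 2.47e-05), the 1 P450 gene of 45 tested that fell, while Cyp313a1 and Cyp4g1 rose. The Cyp4e3 values in controls rest on 24, 22 and 11 reads with sucrose, against 102 without. Its spread in the fit comes from libraries labelled cabut RNAi, which held 745.8 to 1109 normalized reads. Its SE and p therefore need not cover the counting error of the control reads, though it also fell by edgeR. CG10383 held 39.4, 61.9 and 44.8, against 199.8 (-2.04 ± 0.20). CG8654 held 42, 35.9 and 26.9, against 99.9 (-1.51 ± 0.18). The same limit applies to CG8654, with 50, 29 and 12 reads, against 78. Irp-1B, an iron regulatory protein of the aconitase family, held 52.0, 88.0 and 73.9, against 161.4 (-1.20 ± 0.19, adjusted p = 0.00877), and was the 1 call among 9 tested iron genes; the ferritin gene Fer1HCH (-0.12 ± 0.12) did not pass. The succinyl-CoA synthetase gene Scsalpha1 fell by the least of the 48 (412, 386.5 and 373.7, against 619.8, -0.67 ± 0.13, adjusted p = 0.0323). It did not pass without the 100 percent library.

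Of the 2 tested genes in the ovary and eggshell list dhd was called higher, with all its control reads in the 100 percent library. None of 17 photoreceptor, 9 neuron, 8 glia, 8 muscle and 7 hemocyte genes tested was past the threshold, with list medians between -0.22 and 0.14. In the fat body list, where none of 8 passed, the summed level was 74759, 54029 and 62205 normalized reads with sucrose, against 76173 without; the yolk protein genes Yp1, Yp2 and Yp3, which make up most of it, had estimates of -0.29 ± 0.22, -0.33 ± 0.29 and -0.25 ± 0.23. In bulk heads fewer cells of a type and less RNA per cell cannot be told apart. None was called among 85 cytosolic ribosomal protein genes (median 0.02), 71 mitochondrial ribosomal protein genes (0.05), 65 nuclear respiratory chain genes (-0.08), 33 proteasome genes (-0.25), 18 aminoacyl-tRNA synthetase genes (-0.01) and 41 translation factor genes (-0.06). The 13 mitochondrially encoded genes all had estimates above 0 (median 0.31), and none passed. Of 12 circadian genes none passed; tim, the timeless clock gene, was closest (21, 23.5 and 31.3, against 52.5; adjusted p = 0.109). None of 21 antimicrobial and immune genes (median 0.31), 17 odorant-binding protein genes (0.28), 16 cuticle genes (-0.20), 35 glutathione and UDP-glycosyl transferase genes (-0.06), 8 heat shock genes (-0.04), 14 ribosome biogenesis genes (0.07) and 4 Turandot genes (0.62) was past the threshold. TotC shows how far such genes varied among the libraries with sucrose, with 1195, 315.9 and 1302 normalized reads, against 390.6.

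The gene targeted by the RNAi, cbt, held 163.3 ± 28.4 normalized reads with sucrose (SD, n = 6) and 114.5 ± 17.4 without (SD, n = 2) in the libraries labelled cabut RNAi, against 98.5 to 139.3 with sucrose and 93.5 without in controls. Its reads in whole heads were thus not lower under that label. The 8 libraries labelled cabut RNAi give the same measure in flies of the other genotype, with no library shared; the spread estimate is common to both. Of the 48 genes that fell in controls, 22 also fell with sucrose in flies labelled cabut RNAi (45.8 percent of the 48), where 89 of 6552 fell (1.36 percent), so the overlap was 24.7 percent of those 89. Of the 28 that rose, 3 rose in both (FASN1, Pisd and CG3348; 10.7 percent of the 28), where 38 rose in flies labelled cabut RNAi (0.58 percent, and 1.94 percent for both directions). Over all genes tested 53.9 percent had the same sign in both genotypes. The genes of the lipase, fatty acid oxidation and purine lists that fell in controls fell in both: the cabut RNAi estimates were -2.19 ± 0.20 for GIIIspla2, -2.83 ± 0.17 for CG5966, -1.11 ± 0.19 for bmm, -1.30 ± 0.13 for Mcad and -1.01 ± 0.10 for yip2. Shmt (-2.24 ± 0.16), Gart (-1.94 ± 0.19), CG11089 (-1.22 ± 0.16) and Pfas (-1.23 ± 0.15) fell there too, and for none of these 9 did the difference between genotypes pass (adjusted p of the difference 0.513 or higher). Of the other called serine and folate genes, CG6287 fell there (-0.60 ± 0.10), while Ahcy (-0.57 ± 0.17) and aay (-0.21 ± 0.14) did not pass. Among called sugar genes other than the Pepck pair, Sodh1 fell there (-1.04 ± 0.13). The estimates for fbp (-0.05 ± 0.12), Tpi (0.02 ± 0.10), Akr1B (0.05 ± 0.10) and CG32444 (0.19 ± 0.12) did not pass. Their differences between genotypes did not pass either in the fit over all 12 libraries. Those of Akr1B (-0.98 ± 0.17) and CG32444 (-1.07 ± 0.20) passed without the 100 percent library, but not by edgeR. Of the 89 genes that fell in flies labelled cabut RNAi, 83 had an estimate below 0 in controls, with a median log2 fold change of -0.67 in controls and -0.97 in flies labelled cabut RNAi.

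**Figure D3:**
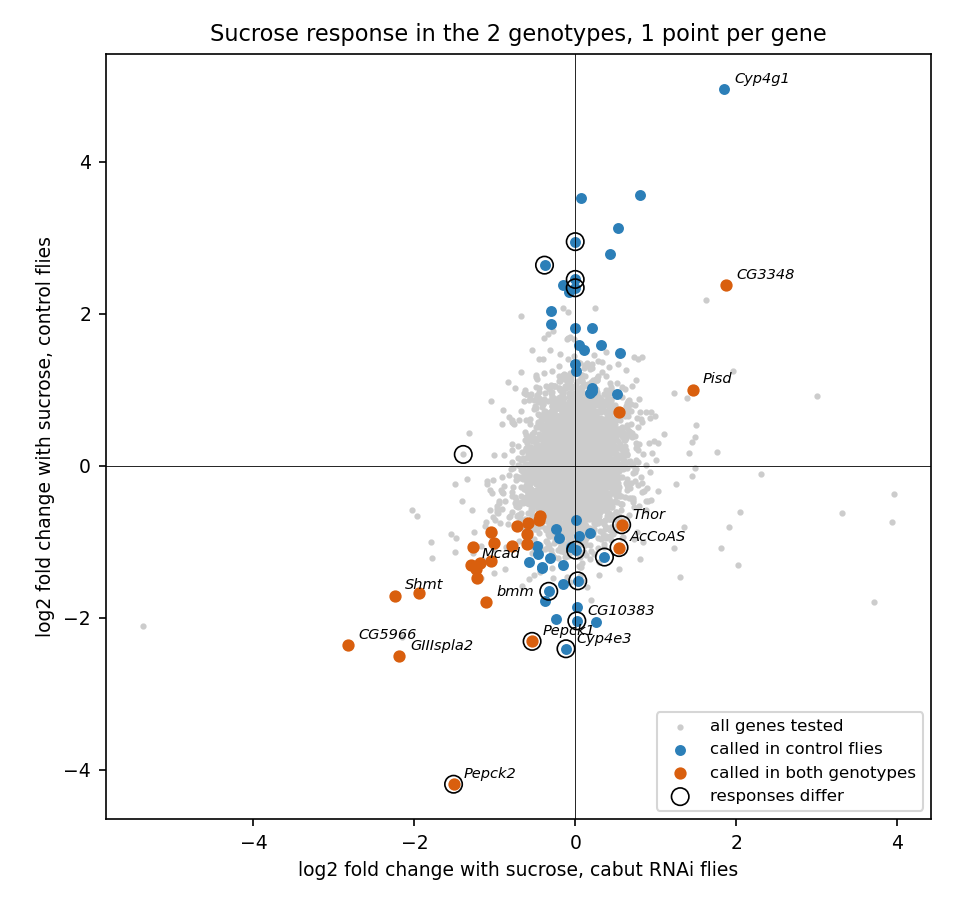
Log2 fold change with sucrose in control flies (vertical) and flies labelled cabut RNAi (horizontal), 1 point per gene tested; blue points were called in controls, orange in both genotypes in either direction, and rings mark the 15 genes whose responses differed. GIIIspla2, CG5966, bmm, Mcad and Shmt lie near the diagonal at the lower left. For Pepck1, Cyp4e3, CG10383, Thor and AcCoAS the control response was more negative. Thor and AcCoAS rose in flies labelled cabut RNAi.

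The test of the difference between the 2 responses passed for 15 of 6552 genes (0.229 percent), the control response being more negative for 10 (0.153 percent) and more positive for 5 (0.0763 percent). Pepck1 averaged 1090 ± 191 normalized reads with sucrose (SD, n = 6) and 1559 ± 69.0 without (SD, n = 2) under the cabut RNAi label, a log2 fold change of -0.54 ± 0.11. The control fold change minus this one was -1.77 ± 0.19 (adjusted p of the difference 0.00222), so the fall was larger in controls. Pepck2 differed as well (adjusted p = 0.0279), but not without the 100 percent library (0.0606) or by edgeR (0.0981). AcCoAS and Thor moved in opposite directions and were called in each genotype. AcCoAS rose in flies labelled cabut RNAi (561.3 ± 83.5 with sucrose and 381.2 ± 20.1 without; 0.54 ± 0.09) and fell in controls, a difference of -1.62 ± 0.15 (adjusted p = 5.87e-04). Thor rose in flies labelled cabut RNAi (525.4 ± 40.9 with sucrose and 353.0 ± 53.7 without; 0.58 ± 0.11), a difference of -1.35 ± 0.18 (adjusted p = 0.0107). With sucrose the Thor values of both genotypes overlapped, and it was the values without sucrose that stood apart, at 804.3 in the control library and 391.0 and 315.0 in the libraries labelled cabut RNAi.

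**Figure D4:**
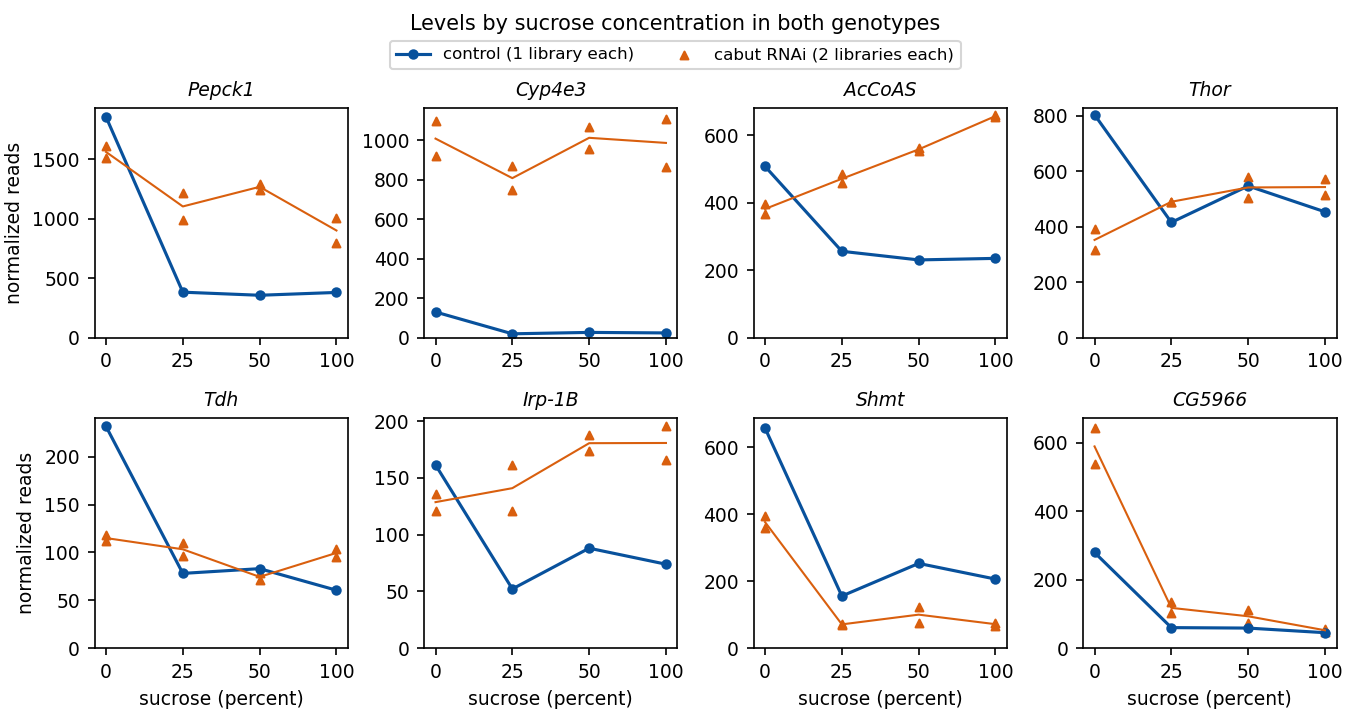
Normalized reads of 8 genes (vertical, from 0) at 0, 25, 50 and 100 percent sucrose; blue circles are single control libraries, orange triangles single libraries labelled cabut RNAi, and lines join control values and cabut RNAi means. Pepck1, AcCoAS, Thor, Tdh and Irp-1B diverge between genotypes, Cyp4e3 lies at another level in each, and Shmt and CG5966 fall in both.

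Tdh, Irp-1B, CG10383, CG8654 and CG3036 fell in controls and had no call in flies labelled cabut RNAi. In flies labelled cabut RNAi Tdh held 92.4 ± 15 normalized reads with sucrose and 115.0 ± 4.32 without, CG10383 55.1 ± 7.88 and 53.9 ± 3.30, Irp-1B 167.4 ± 26.4 and 128.6 ± 10.5, CG8654 115.3 ± 11.6 and 112.4 ± 8.10, and CG3036 262.4 ± 28.9 and 260.1 ± 9.78 (SD, n = 6 with sucrose and 2 without). The Irp-1B estimate there lay above 0 without passing (0.36 ± 0.13, adjusted p = 0.335). For Tdh the difference (-1.32 ± 0.21, adjusted p = 0.0193) did not pass without the 100 percent library (0.0540). The control library without sucrose held more Tdh (231.8) and CG10383 (199.8) than any of the 11 other libraries. With sucrose the CG10383 values of both genotypes overlapped, at 39.4 to 61.9 in controls and 42.6 to 64.1 in flies labelled cabut RNAi. Cyp4e3 differed in level between genotypes far more than with sucrose, with 935.9 ± 137 normalized reads with sucrose and 1008 ± 127 without in flies labelled cabut RNAi. Cyp6a8, another P450 gene, showed the reverse: it fell in flies labelled cabut RNAi (88.3 ± 9.67 with sucrose and 232.5 ± 13.0 without) and held 19.3, 18.6 and 17.9, against 16.6 normalized reads, in controls (adjusted p of the difference 0.0423, and 0.253 by edgeR). The activator gene sug rose in flies labelled cabut RNAi (124.8 ± 35.5 with sucrose and 44.8 ± 5.76 without) and did not pass in controls, and the difference did not pass either (adjusted p = 0.0818). The control library without sucrose is single, and each of these differences rests on it.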

How the data were processed

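Heads of flies at 4 sucrose concentrations gave 12 libraries, which were read as 3′ RNA-seq after poly(A) selection of fragmented RNA, per the labels' protocols. The submitters' processing notes list TopHat, Bowtie and genome build dm3. Their versions, how reads were counted, whether strand was used and how the scaling factor was set: not given in the sources used here. The deposited values are a signal, reads per transcript divided by the authors' 1 factor per library; whole reads were recovered from them for 100 percent of values within 0.01 of a whole number. Of 21081 transcript rows, the row with the highest mean was kept for each of 13760 genes, and symbols were matched for 13536 of 14010 CG numbers. Testing covered 6552 genes averaging at least 10 normalized reads, and was done with limma 3.58.1 (R 4.3.3, intensity trend) on log2(value + 1), 1 fit over all 12 libraries, 8 groups, with Benjamini-Hochberg adjustment. Depth was 511487 to 1859284 reads, which limits precision for genes with few reads; intervals cover counting error only. Count tests on the recovered reads (DESeq2 1.42.0, edgeR 4.0.16) were alternatives; edgeR called 2 genes higher and 47 lower in controls. Other alternatives were the pseudocount, the filter, scaling, variance model, gene summary, replicate block and libraries left out. Replicate libraries differed beyond counting error, with a chi-square per degree of freedom of 2.89 to 6.23, so none was taken as a repeat deposit of another; this does not show whether they came from separate cultures.

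Genes were named by a rule: cbt, the 15 largest called changes in each direction with a mean of at least 50 and the value without sucrose outside the range of the others, up to 4 called members of each gene list or else its member with the smallest p, and the 6 largest differences in each direction. Other genes in the text were picked after their values were seen. The comparison and the gene lists were chosen with earlier results of these data known.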

Additional observations from a re-analysis of the deposited data

Results flagged for a closer look

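For 15 genes the test of the difference between the sucrose response of controls and that of flies labelled cabut RNAi passed an adjusted p of 0.05 (limma). Differences are log2 fold change in controls minus that in flies labelled cabut RNAi. The control response was more negative for Pepck2 (-2.68, which depends on the value added before the log since 2 reads remained with sucrose), Cyp4e3 (-2.29), CG10383 (-2.06), Pepck1 (-1.77), AcCoAS (-1.62), Irp-1B (-1.56), CG8654 (-1.54), Thor (-1.35), Tdh (-1.32) and CG3036 (-1.12).

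The control response was more positive for Cyp6a8 (1.54) and Prestin (3.02). Prestin rests on 36 reads in the 3 control libraries with sucrose and 1 read without, a ratio of 11.5 with an exact 95 percent counting interval of 1.94 to 466.4. For CG34324, CG3906 and Muc68D all reads lay in the control library at 100 percent sucrose, with 461.0, 129.8 and 163.4 normalized reads there and 0 in the 11 other libraries. Gut protease and ovary genes were also higher in that library, and their part in these results was not tested.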

How the results depend on the processing

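In controls 28 genes rose and 48 fell. The counts were 287 and 135 with no filter on low values, 16 and 15 by limma without the trend, 65 and 86 by robust limma, 5 and 23 in the 4 control libraries alone and 2 and 31 by DESeq2; 8 rose at a mean of at least 50, 16 after quantile normalization, 2 by edgeR and 1 by edgeR without the 100 percent library, an alternative added after seeing the data. With 1 library left out, 9 to 40 rose and 33 to 68 fell, the lowest without the 100 percent and the highest without the 50 percent control library. For the difference between responses, 5 more positive and 10 more negative, the counts were 220 and 95 with no filter; the positive count was 1 at a mean of at least 50, 2 after quantile normalization, 8 with summed transcript rows and 1 by edgeR with or without the 100 percent library, and the negative count 4 without the trend and 17 by robust limma. DESeq2 gave 0 and 4, with 22 and 39 at an unadjusted p under 0.05. Leaving out 1 library gave 1 to 12 and 4 to 18. In flies labelled cabut RNAi, 38 rose and 89 fell, against 16 and 38 with no filter, 9 and 25 without the trend, 24 and 51 by DESeq2, and 12 to 60 and 24 to 90 with 1 library left out. The cause of these differing counts was not tested. DESeq2 gave no adjusted p for 3811 of 6552 genes in controls and for 4319 in flies labelled cabut RNAi. Of 974 values of the 39 named called genes under 25 alternatives, 823 stayed past the threshold, 151 did not and 0 changed sign. The replicate numbers exist for flies labelled cabut RNAi only and their deviations correlated by -0.112 to 0.143, so they do not pair the libraries; with a replicate block 41 rose and 53 fell in controls, and the difference counts were 5 and 17. The single control library without sucrose could not be left out. With 511487 reads at 100 percent sucrose, genes with few reads are limited by depth. The planned description of promoter motifs was not run.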
